A study of Mus musculus with 12 samples.

Results

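This section describes 10 integrin genes in whole mouse pancreatic tumours, every one by all of its probes on an Illumina expression array. The genes were a fixed list of named subunits, and a probe was taken as a member when the array's gene annotation gave it 1 of those symbols. These are 10 of 19057 genes on the array, with 23 of its 45281 probes, 11 for the leukocyte subunits Itgam, Itgax, Itgal, Itgb2 and Itga4 and 12 for the matrix and epithelial subunits Itgav, Itgb3, Itgb5, Itga6 and Itgb4. Adult female C57BL/6J mice carried orthotopic pancreatic ductal adenocarcinomas, grown from syngeneic tumour cell lines that were placed surgically in the pancreas with matrigel. Once tumours were established, chow delivered vehicle (the Vehicle group, 4 tumours) or a CSF1R inhibitor (the CSF1Ri group, 5 tumours; CSF1R is the receptor for the macrophage growth factor CSF1) for 8 days, and all mice were perfused before the tumours were digested with collagenase. The labels name neither the compound, nor its dose, nor the cell lines.

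Integrins are heterodimers of an alpha and a beta chain that hold cells to the matrix or to other cells. Itgb2 (CD18) is the shared beta chain of the leukocyte integrins: with Itgal it forms LFA-1, which binds ICAMs, with Itgam it forms Mac-1, which binds complement-coated particles, fibrinogen and ICAM-1, and with Itgax it forms a receptor much used as a dendritic cell marker. Itga4 pairs with Itgb1 or Itgb7 and binds Vcam1 and fibronectin. Itgav pairs with several beta chains, among them Itgb3 and Itgb5, in receptors for vitronectin and other proteins with an RGD sequence, and Itga6 with Itgb4 is the laminin receptor of epithelial hemidesmosomes. Macrophages depend on signals through CSF1R, and the comparison asks how blocking that receptor for 8 days alters the tumour's transcripts.

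The 12 arrays came from 9 tumours, because Vehicle 1, Vehicle 3 and CSF1Ri 1 were each hybridised a further time, and those arrays were averaged with the first. Levels below are normalised log2 intensities per tumour. A probe was called detected on an array when its deposited detection p-value was under 0.05, and each array had 16219 to 17847 detected probes. The lowest detected signal of an array lay between 4.71 and 4.87 on this scale (median 4.77), and levels under it have no meaningful order. The arrays fell into 6 dimmer ones, with mean unscaled intensities of 142 to 193, and 6 brighter ones, with 224 to 316, each set holding 3 Vehicle and 3 CSF1Ri tumours. Over the 9788 genes tested with limma, 21 (0.215%) passed an adjusted p under 0.05 with a lower level under CSF1Ri and 0 with a higher one, and 372 (3.80%) were lower and 365 (3.73%) higher at an unadjusted p under 0.05. Nothing in the labels states how the tumours relate to one another beyond being separate samples of a group. The p-values set group differences against the spread between these samples. Which sources that spread covers, such as mice or cell lines, is not stated. Csf1r itself fell from 7.46 ± 0.29 in Vehicle (SD, n = 4) to 6.24 ± 0.32 in CSF1Ri tumours (SD, n = 5; limma adjusted p = 0.0345).

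Of the 23 probes, 9 passed the filter of detection in at least 4 tumours, and they stood for 6 of the 10 genes. Over all probes with 1 symbol, 41.2% passed. For the leukocyte members 2 of 11 probes passed, those of Itgal and Itgb2. For the matrix and epithelial members 7 of 12 passed, 3 of Itgav, 2 of Itgb4 and 1 each of Itgb5 and Itga6. A further 10 probes were detected on no array, and 8 of these belonged to leukocyte members. Probes designed on RefSeq transcripts passed more often than those designed on AK cDNA clones, 7 of 13 against 2 of 10 among the members and 44.3% against 14.7% over all probes with 1 symbol. Levels of different probes are not compared with each other, because each probe has its own response.

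**Figure D1:**
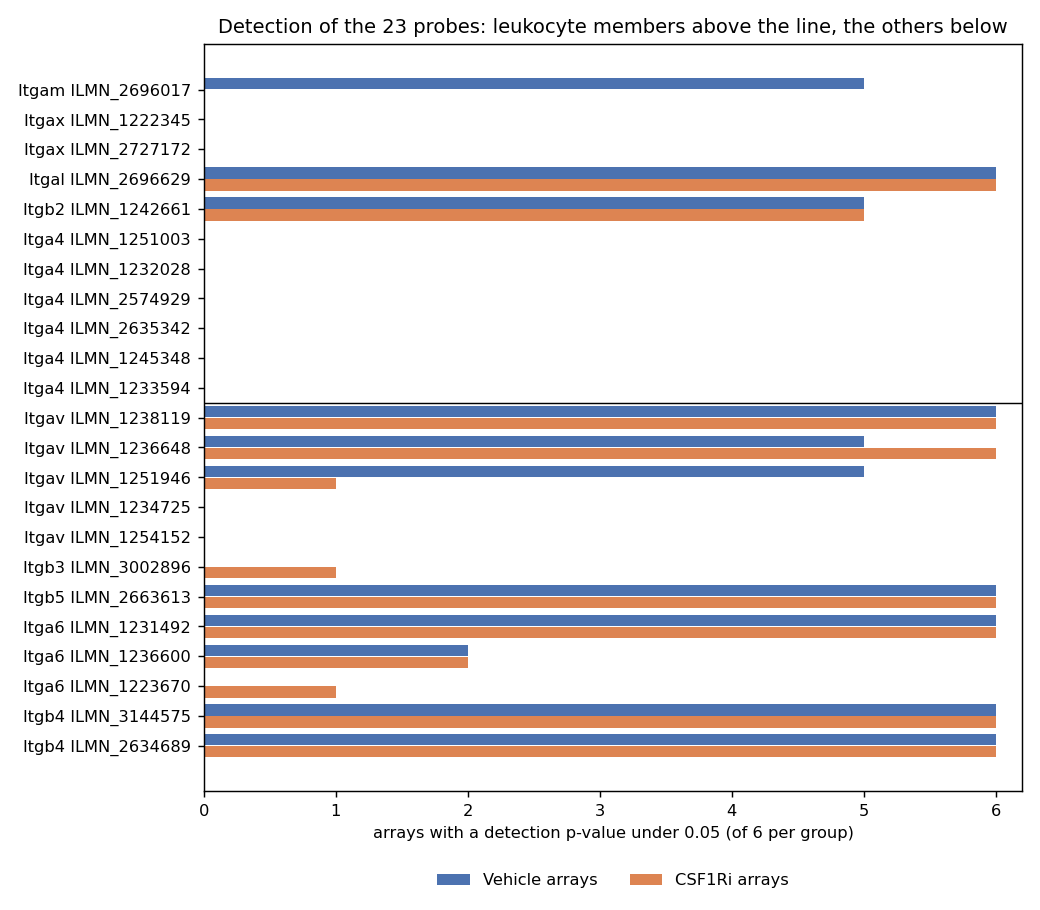
Number of arrays, out of 6 per group, on which each of the 23 integrin probes had a detection p-value under 0.05 (blue Vehicle, orange CSF1Ri; no bar means 0 arrays). Itgam was detected on 5 Vehicle arrays and 0 CSF1Ri arrays, while all 6 Itga4 and both Itgax probes had no bar in either group.

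Itgam, which encodes CD11b, the alpha chain of Mac-1 on monocytes, macrophages and neutrophils, was the member whose detection differed most between the groups. Its single probe (ILMN_2696017, Entrez Gene 16409) was at 4.71, 5.28, 4.97 and 5.12 in Vehicle 1 to 4. In CSF1Ri 1 to 5 it was at 4.57, 4.55, 4.51, 4.42 and 4.31. Vehicle 2, 3 and 4 lay above the lowest detected signal of every array, 4.87 at most, while Vehicle 1 and all CSF1Ri tumours lay under 4.87, where no order can be read. Detection held for 5 of the 6 Vehicle arrays and 0 of the 6 CSF1Ri arrays. The Vehicle array that missed was the first hybridisation of Vehicle 1, whose scanner detection value was 0.0780, against 0.0481 on its repeat. By brightness set, 2 of 3 dimmer and 3 of 3 brighter Vehicle arrays detected it, against 0 of 3 CSF1Ri arrays in each. A pattern this uneven, at least 5 Vehicle arrays and no CSF1Ri array, was found for 13 of the 34885 probes with a single gene symbol (0.0373%). The reverse pattern was found for 9 (0.0258%). The cutoff was set by the counts of Itgam itself, so these shares are a description and not a test. They count arrays, and Vehicle 1, Vehicle 3 and CSF1Ri 1 each had more than 1.

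Because Itgam was not well above background on any CSF1Ri array, only a bound on its change can be given. The measured Vehicle mean of 5.02 ± 0.24 (SD, n = 4) was 1.18-fold above what the CSF1Ri arrays could have detected. The measured CSF1Ri mean was 4.48 ± 0.11 (SD, n = 5). This bound is approximate, because the Vehicle mean takes Vehicle 1 (4.71), undetected on its first array, at face value. With all array levels under 4.87 tied at that level, a two-sided exact permutation test over all splits of the tumours gave p = 0.0476, unadjusted over the 23 probes tested. On the measured levels, which order undetected signals too, the exact permutation p was 0.00794, the smallest that 4 against 5 tumours allow. Itgam was the sole probe of the 23 with a p under 0.05 in either form. With median scaling in place of quantile normalization the exact permutation p on the measured levels was 0.0556. Itgam was detected in 3 whole tumours and so did not enter the limma fit. In a fit without the detection filter its limma adjusted p was 0.261 over 19057 genes, of which 0.0630% were called lower.

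In whole tumours, fewer cells of a type and less RNA per cell cannot be told apart. Of 15 macrophage markers, 12 were tested, 11 had negative log2 fold changes and 4 were called lower. The summed intensity of the 12 was 6619 to 10804 in Vehicle and 3815 to 6429 in CSF1Ri tumours. The 11 tested neutrophil markers were all negative, 2 of them called, with sums of 4398 to 18025 and 1176 to 5335. Vehicle 1, the Vehicle tumour lowest in Itgam, had the highest neutrophil sum of its group, 18025, and the lowest macrophage sum, 6619. Its mean log2 level over the 11 neutrophil markers was likewise the highest of its group, 9.43 against 7.27 to 8.48 in the other Vehicle tumours. The 2 called neutrophil markers went the other way, with Vehicle 1 the lowest Vehicle tumour for Mmp9 (10.27) and Trem1 (5.76). Vehicle 1 also had the highest mean log2 level of its group for erythroid markers, 10.17 against 6.85 to 8.15. The same held for platelet and megakaryocyte markers, 6.10 against 5.02 to 5.45. Its T and NK cell mean was the lowest of the group, 6.44 against 7.15 to 7.49. The part of any of these cell types in the Itgam values was not tested.

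The upstream sequences of 5 of the 10 genes, Itgam, Itgax, Itga4, Itgav and Itgb5, were found in the RefSeq promoter table (GRCm38.p6). Those of Itgam, as the member whose detection differed most, and Itgav, as the other member whose window held the motif, are shown over the 250 bases before the gene start, on the plus strand, 5′ to 3′. Itgam lies at chr7:128062390-128062639 and Itgav at chr2:83724147-83724396 in these windows. Capitals mark GAGGAA, the purine-rich core bound by the myeloid factor PU.1, or its reverse complement TTCCTC.
Itgam: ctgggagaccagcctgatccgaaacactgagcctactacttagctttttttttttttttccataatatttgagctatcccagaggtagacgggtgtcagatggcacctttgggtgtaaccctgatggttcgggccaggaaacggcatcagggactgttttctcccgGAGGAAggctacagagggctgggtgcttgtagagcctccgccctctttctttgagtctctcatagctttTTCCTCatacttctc
Itgav: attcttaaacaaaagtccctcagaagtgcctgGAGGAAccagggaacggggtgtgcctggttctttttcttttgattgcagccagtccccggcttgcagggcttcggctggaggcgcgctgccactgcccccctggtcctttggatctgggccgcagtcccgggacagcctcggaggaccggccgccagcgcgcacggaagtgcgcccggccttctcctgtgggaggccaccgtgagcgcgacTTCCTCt
Each window held 1 match on each strand, beginning 84 and 15 bases before the start of Itgam and 218 and 7 bases before that of Itgav. The windows of Itgax, Itga4 and Itgb5 held 0 matches, and 23.3% of all 32851 windows of this length held at least 1. PU.1 is known to act on the CD11b promoter in human myeloid cells. A match of these letters is no evidence of binding, and Itgam and Itgav held them alike.

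Itgal, the CD11a chain of LFA-1 on most leukocytes, was detected on all 12 arrays. Its probe (ILMN_2696629) was at 5.72, 6.44, 6.32 and 6.15 in Vehicle 1 to 4. The CSF1Ri tumours 1 to 5 were at 6.13, 6.07, 5.82, 5.62 and 5.60. The highest 3 Vehicle tumours stood above all treated tumours, while Vehicle 1 fell among the lowest treated ones. The means were 6.16 ± 0.31 (SD, n = 4) and 5.85 ± 0.24 (SD, n = 5), a log2 fold change of -0.31 (SE 0.17, 95% confidence interval -0.69 to 0.07) that did not pass (limma adjusted p = 0.773). Without Vehicle 1 it was -0.45 with a limma adjusted p = 0.451. The dimmer arrays alone gave -0.24 and the brighter arrays alone -0.19. All 3 repeated tumours read lower on their brighter, second array, by 0.61, 0.32 and 0.43 in Vehicle 1, Vehicle 3 and CSF1Ri 1. Another limma fit, over the 12 single arrays, took the brightness set as a term and the arrays of a tumour as correlated. Its Itgal log2 fold change was -0.28 (SE 0.15, limma adjusted p = 0.670).

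Itgb2, the CD18 chain that every Mac-1 and LFA-1 molecule needs, was dim. Its probe (ILMN_1242661) was at 4.74, 5.46, 5.48 and 5.31 in Vehicle 1 to 4. It was at 5.21, 4.68, 4.87, 5.12 and 4.84 in CSF1Ri 1 to 5. The 3 highest values were again Vehicle 2, 3 and 4, and Vehicle 1 and CSF1Ri 2 were lowest, near the lowest detected signal. The log2 fold change was -0.31 (SE 0.17, 95% confidence interval -0.69 to 0.08, limma adjusted p = 0.782), and it was -0.47 without Vehicle 1 (limma adjusted p = 0.364). The dimmer arrays alone gave -0.14 and the brighter ones -0.29. Detection was the same in both groups, 5 of 6 arrays.

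**Figure D2:**
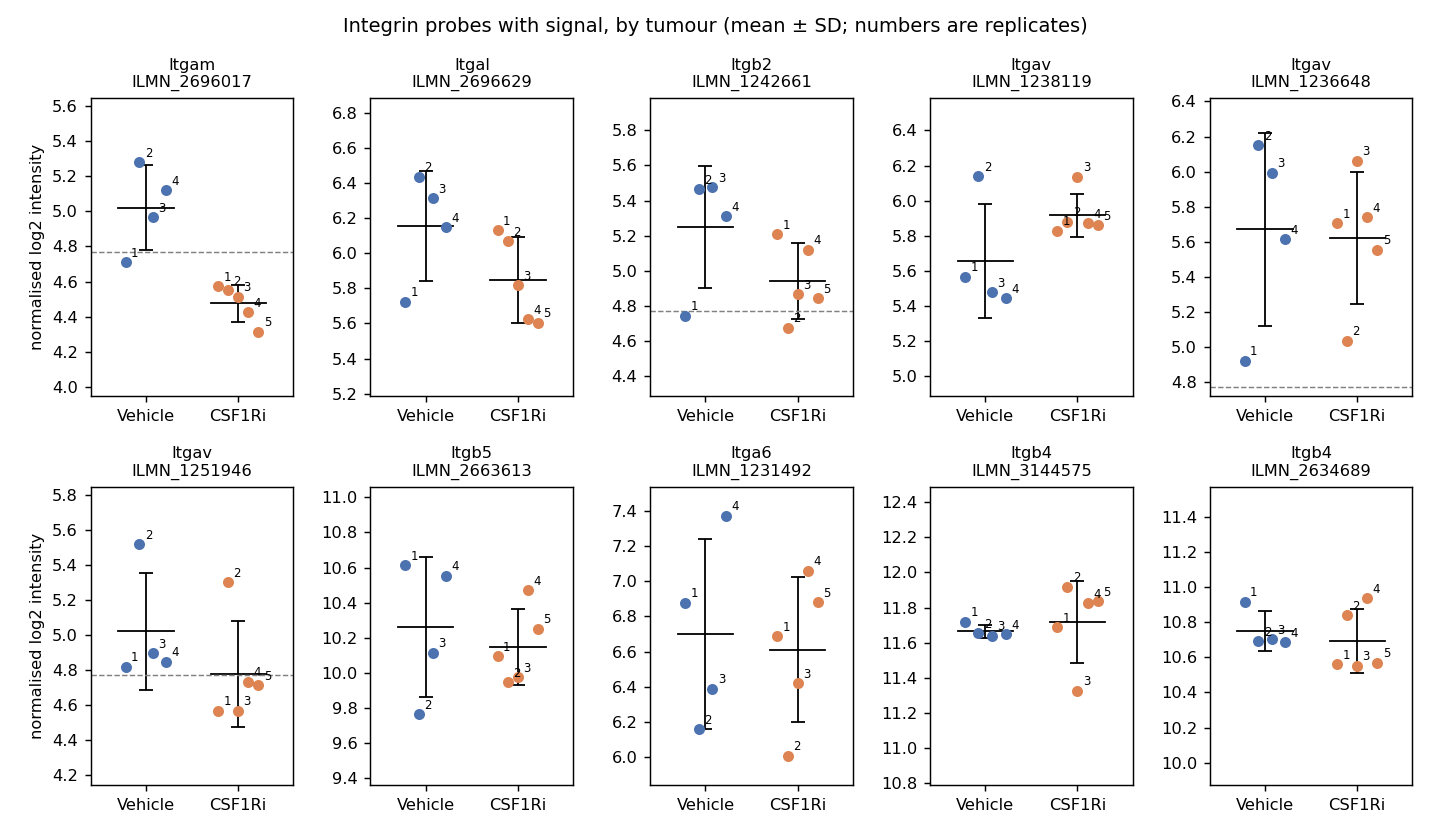
Normalised log2 intensity of the 9 probes that passed the filter and of Itgam, by tumour (points, numbered by replicate; blue Vehicle, orange CSF1Ri; bars are mean ± SD; each panel has its own range and the dashed line at 4.77 is the median of the lowest detected signals). For Itgam, Vehicle 2, 3 and 4 lie above the line and all other tumours, Vehicle 1 among them, below it, where no order can be read. The groups overlap in the panels of the kept probes. Vehicle 1 has the lowest measured level of the Vehicle tumours for Itgam, Itgal and Itgb2.

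Itgax (CD11c) and Itga4 (CD49d) gave no usable signal. Both Itgax probes and all 6 Itga4 probes were detected on 0 of 12 arrays, with smallest detection p-values of 0.0673 and 0.0652. Their levels ran from 4.24 to 4.67 for Itgax and from 4.22 to 4.69 for Itga4, under the lowest detected signal of any array. No change can be read from them, and a level below detection is not an absence of the transcript. Of the leukocyte members, then, 3 gave signal in Vehicle tumours, and all 3 had lower means in CSF1Ri tumours. For Itgam that lower mean lay below detection. Negative log2 fold changes were found for 4599 of all 9788 genes tested.

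A list of 10 pan-leukocyte genes leaned the same way without a call. Of the 9 tested, 8 had negative log2 fold changes (median -0.79, against 0.01 over all genes tested), 0 were called by limma and 6 were lower at an unadjusted p under 0.05. Their summed intensity was 6807 to 10395 in Vehicle and 3884 to 9927 in CSF1Ri tumours, and Ptprc, which encodes CD45, was detected on 0 of 12 arrays. Itgal and Itgb2 had smaller negative values (both -0.31) than this median. The offset added before logging shrinks changes of dim probes, and its part in this difference was not tested. T and NK cell markers leaned the other way, with 8 of 9 positive (median 0.62), 4 higher at an unadjusted p under 0.05 and 0 called. The part of cell composition in the integrin values was not tested.

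Among the matrix receptors, Itgav (CD51) had 5 probes, of which 3 passed the filter with estimates of different sign and overlapping intervals. The brightest kept probe, on a RefSeq transcript (ILMN_1238119), was at 5.57, 6.14, 5.48 and 5.45 in Vehicle 1 to 4 and at 5.83, 5.88, 6.14, 5.87 and 5.86 in CSF1Ri 1 to 5. Vehicle 2 was as high as the highest treated tumour, and the other 3 Vehicle tumours lay below all treated ones. Its log2 fold change was 0.26 (SE 0.15, 95% confidence interval -0.08 to 0.60, limma adjusted p = 0.802). Without Vehicle 2 it was 0.42 (limma adjusted p = 0.391), and the dimmer and brighter sets gave 0.23 and 0.35.

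The other kept Itgav probes came from cDNA clones. ILMN_1236648 ran from 4.92 to 6.15 in Vehicle and from 5.04 to 6.06 in CSF1Ri tumours, a log2 fold change of -0.05 (SE 0.26). ILMN_1251946 ran from 4.82 to 5.52 and from 4.57 to 5.30, a log2 fold change of -0.24 (SE 0.19), with detection on 5 of the 6 Vehicle but 1 of the 6 CSF1Ri arrays. Neither passed in the fit over 16606 probes (limma adjusted p = 0.993 and 0.898), where 24 probes (0.145%) were called and 0 of the 9 member probes. The remaining 2 Itgav probes were detected on 0 of 12 arrays. Averaging the 3 kept probes gave a log2 fold change of -0.01, so the sign of the Itgav estimate depended on the probe.

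Itgb3, the beta chain of platelets and osteoclasts that pairs with Itgav and Itga2b, was detected on 1 of 12 arrays, a CSF1Ri array. Its levels were 4.30 to 4.52 in Vehicle and 4.33 to 4.74 in CSF1Ri tumours, near or below the lowest detected signal. Of 8 platelet and megakaryocyte markers 4 were tested and all were negative (median -0.27, 0 called), with sums of 134 to 285 in Vehicle and 93.2 to 183 in treated tumours. Of 8 osteoclast markers 4 were tested and 2 called lower (median -1.25), with sums of 2988 to 6200 and 889 to 1352. Their part in the Itgb3 values was not tested. Itgb5, which pairs with Itgav on many stromal and epithelial cells, was bright. It was at 10.61, 9.76, 10.12 and 10.55 in Vehicle 1 to 4 and at 10.10, 9.95, 9.97, 10.47 and 10.25 in CSF1Ri 1 to 5. The treated tumours fell inside the Vehicle range, and the log2 fold change was -0.11 (SE 0.19, 95% confidence interval -0.53 to 0.31, limma adjusted p = 0.969).

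Itga6 (CD49f), the alpha chain of the epithelial laminin receptor, gave no difference beyond its spread but showed a large effect of the array. Its kept probe (ILMN_1231492) was at 6.88, 6.16, 6.39 and 7.37 in Vehicle 1 to 4 and at 6.69, 6.01, 6.42, 7.06 and 6.88 in CSF1Ri 1 to 5. Groups overlapped almost fully, with a log2 fold change of -0.09 (SE 0.27, 95% confidence interval -0.69 to 0.52, limma adjusted p = 0.986). Every dimmer array (5.93 to 6.60) lay below every brighter array (6.84 to 7.37), a separation found for 3.02% of the 16606 kept probes. The second array of a tumour read higher by 0.56, 0.91 and 0.84 in Vehicle 1, Vehicle 3 and CSF1Ri 1. In the fit over single arrays with the brightness set as a term, the standard error of the Itga6 difference was 0.15. The log2 fold change was -0.08 (limma adjusted p = 0.954). That fit also differs from the main one in its unit and error model, so its standard error does not isolate the brightness term.

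**Figure D3:**
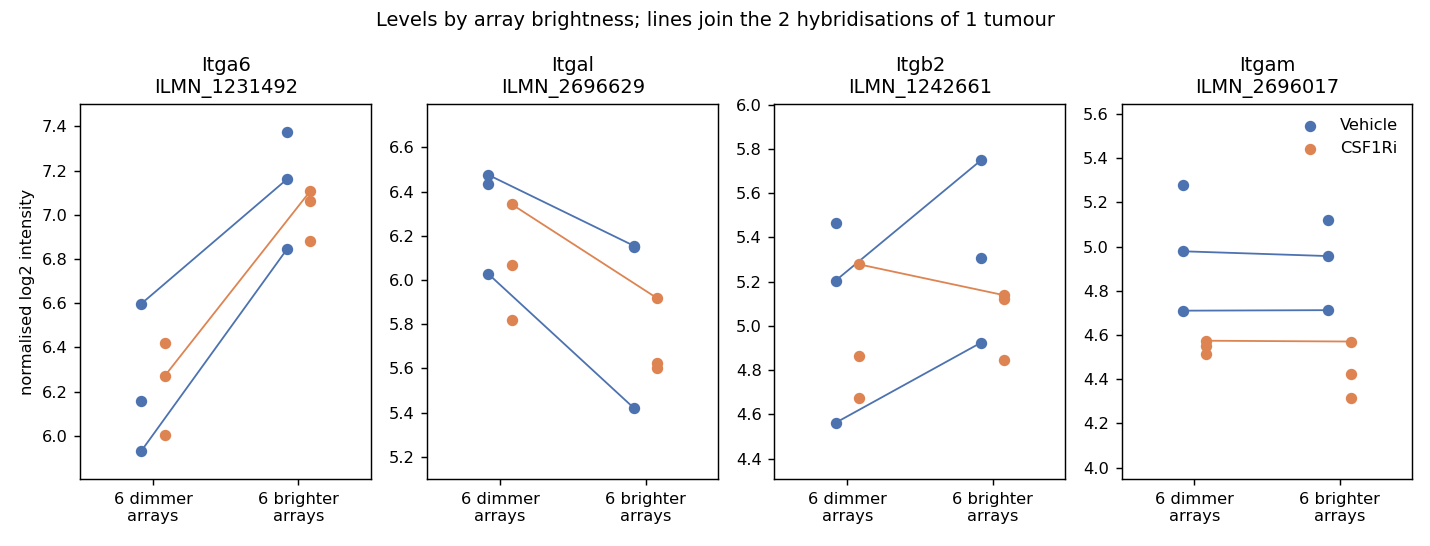
Normalised log2 intensity on each array of Itga6, Itgal, Itgb2 and Itgam, for the 6 dimmer and 6 brighter arrays (blue Vehicle, orange CSF1Ri; lines join the hybridisations of 1 tumour). All Itga6 arrays of the brighter set lie above those of the dimmer set, all 3 Itgal lines fall, and all CSF1Ri arrays lie under 4.71, the lowest detected signal of any array, for Itgam.

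The other Itga6 probes were mostly undetected. ILMN_1236600 was detected on 2 of 6 arrays in each group, and ILMN_1223670 on 0 Vehicle arrays and 1 CSF1Ri array.

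Itgb4 (CD104), the hemidesmosomal beta chain of epithelial cells, had the smallest spread among Vehicle tumours of the kept probes. By ILMN_3144575 it was at 11.72, 11.65, 11.64 and 11.65 in Vehicle 1 to 4. In CSF1Ri 1 to 5 it was at 11.69, 11.92, 11.32, 11.82 and 11.84. The Vehicle SD was 0.04 (n = 4), and the treated tumours lay on both sides of that narrow range (SD 0.24, n = 5). The log2 fold change was 0.05 (SE 0.13, 95% confidence interval -0.23 to 0.34, limma adjusted p = 0.980), and the other probe, ILMN_2634689, gave -0.06 (SE 0.12, limma adjusted p = 0.976 over the probes). Markers of ductal and tumour epithelium were tested for 11 of 13 genes, with 8 positive (median 0.16), 0 called, sums of 27100 to 42182 in Vehicle and 30035 to 41242 in treated tumours, and Epcam detected on 0 arrays. The 12 tested acinar markers were all negative (median -2.52, 0 called), with sums of 32757 to 93673 and 858 to 109617. Their part in the Itga6 and Itgb4 values was not tested.

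Set side by side, the 2 tested leukocyte genes had a median log2 fold change of -0.31 and the 4 tested matrix and epithelial genes one of -0.02, against 0.01 over all genes. Of these 6 genes, 0 were called by limma at an adjusted p under 0.05 and 0 at an unadjusted p under 0.05. Groups that did not overlap were found for 0 of the 6, against 1.42% of all genes tested with CSF1Ri lower, 1.46% with CSF1Ri higher and 2.88% in either direction. The leukocyte values were negative for both genes, and the matrix values were negative for Itgb5 and Itga6 and positive for Itgav and Itgb4. No test of the difference between the groups of genes was made.

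**Figure D4:**
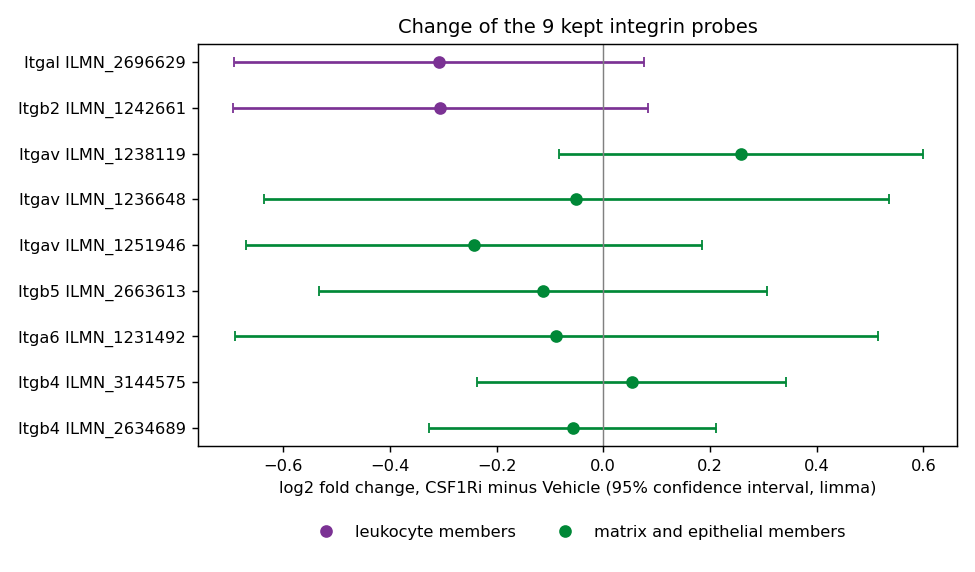
Log2 fold change, CSF1Ri minus Vehicle, of the 9 kept integrin probes with 95% confidence intervals from limma (purple leukocyte members, green matrix and epithelial members). Every interval includes 0, Itgal and Itgb2 are both at -0.31, and the 3 Itgav probes run from -0.24 to 0.26.

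The other integrin subunits gave no call. Of 17 listed, 12 were tested, 5 were negative and 7 positive (median 0.05), 0 were called by limma and 2 were lower at an unadjusted p under 0.05. These were Itga9, a receptor chain for tenascin-C, with means of 7.24 ± 0.14 and 6.77 ± 0.26 (log2 fold change -0.47, limma adjusted p = 0.376), and Itgae (CD103) of intraepithelial T cells and some dendritic cells (5.83 ± 0.27 against 5.15 ± 0.45, log2 fold change -0.67, limma adjusted p = 0.447). Itgb7, the partner of both Itgae and Itga4, was at 0.69 (limma adjusted p = 0.681), with Vehicle 1 lowest at 7.84 and the other tumours at 9.07 to 9.96. Itgb6, an epithelial chain whose dimer with Itgav activates latent TGF-beta, was at 0.67 (limma adjusted p = 0.788), with CSF1Ri 3 highest at 9.76. Itga5, the fibronectin receptor chain, was at -0.26 (limma adjusted p = 0.761). The pair Itgae and Itgb7 thus had values of opposite sign, neither past the test.

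Ligands were tested next to their receptors. Of 12 tested ligands on cells and in blood, 9 were positive (median 0.20), 0 were called by limma and 2 were higher at an unadjusted p under 0.05. Vcam1, the endothelial and stromal ligand of Itga4 integrins, was at 10.48, 10.49, 10.38 and 9.94 in Vehicle 1 to 4 and at 10.72, 10.78, 11.21, 10.99 and 10.64 in CSF1Ri 1 to 5. Every treated tumour was above every Vehicle tumour (log2 fold change 0.54, SE 0.16, limma adjusted p = 0.326), a separation seen for 1.46% of all genes tested. F11r, a junctional ligand of LFA-1, was at 0.40 (limma adjusted p = 0.629), the fibrinogen chain gene Fgg at 0.55 (limma adjusted p = 0.732), Cd47 at 0.30 (limma adjusted p = 0.805) and Vwf at 0.24 (limma adjusted p = 0.941). Icam1, the main ligand of LFA-1 and Mac-1, had means of 8.89 ± 0.44 and 8.95 ± 0.41 (limma adjusted p = 0.990).

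Of 17 tested matrix ligands, 9 were positive and 8 negative (median 0.03), 0 were called by limma, and 2 were higher at an unadjusted p under 0.05. These were Thbs1, which encodes thrombospondin-1 (limma adjusted p = 0.559), and Mfge8, a secreted bridge between Itgav integrins and apoptotic cells (12.88 ± 0.11 against 13.15 ± 0.14, log2 fold change 0.27, limma adjusted p = 0.580). Detection of Thbs1 went from 1 of the 6 Vehicle arrays to 5 of the 6 treated ones. Its Vehicle level was mostly below detection, so no fold change is given. The Mfge8 groups did not overlap, and nor did the measured Thbs1 levels. Such a separation with CSF1Ri higher was seen for 1.46% of all genes tested. Tgfb1, whose latent form binds Itgav integrins, was at -0.27, Ccn2 at 0.27 and Emilin1 at -0.24 (limma adjusted p = 0.698, 0.717 and 0.872).

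The list of activation and signalling partners, mostly cytoplasmic proteins with a few tetraspanins, held more low values. Of 40 listed, 31 were tested, and 20 were negative and 11 positive (median -0.19). By limma 0 were called, and 9 were lower at an unadjusted p under 0.05 where 3.80% of all genes were. Those with the smallest p were Was, an actin regulator of blood cells (-1.06, limma adjusted p = 0.261), and Fermt3, the kindlin of blood cells that activates beta chains (7.03 ± 0.28 against 6.03 ± 0.66, limma adjusted p = 0.357). Next came the adaptor Fyb (-0.65, limma adjusted p = 0.376), the paxillin relative Lpxn (-1.10, limma adjusted p = 0.388) and Cyth1, which binds the Itgb2 tail (-0.51, limma adjusted p = 0.445). In all 5 genes CSF1Ri 3 or CSF1Ri 1 overlapped with the Vehicle range. Was and Coro1a also stand in the pan-leukocyte list, so these values are not independent of it. Among 6 tested hemidesmosome partners 4 were positive, from 0.14 to 0.25, and 2 negative, Lamb3 at -0.22 and Krt14 at -0.39, with 0 called by limma and 0 at an unadjusted p under 0.05. Col17a1 and Dst, structural hemidesmosome genes, were at 0.25 and 0.24 (limma adjusted p = 0.807 and 0.872), and Cd151 and Plec both at 0.14.

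**Figure D5:**
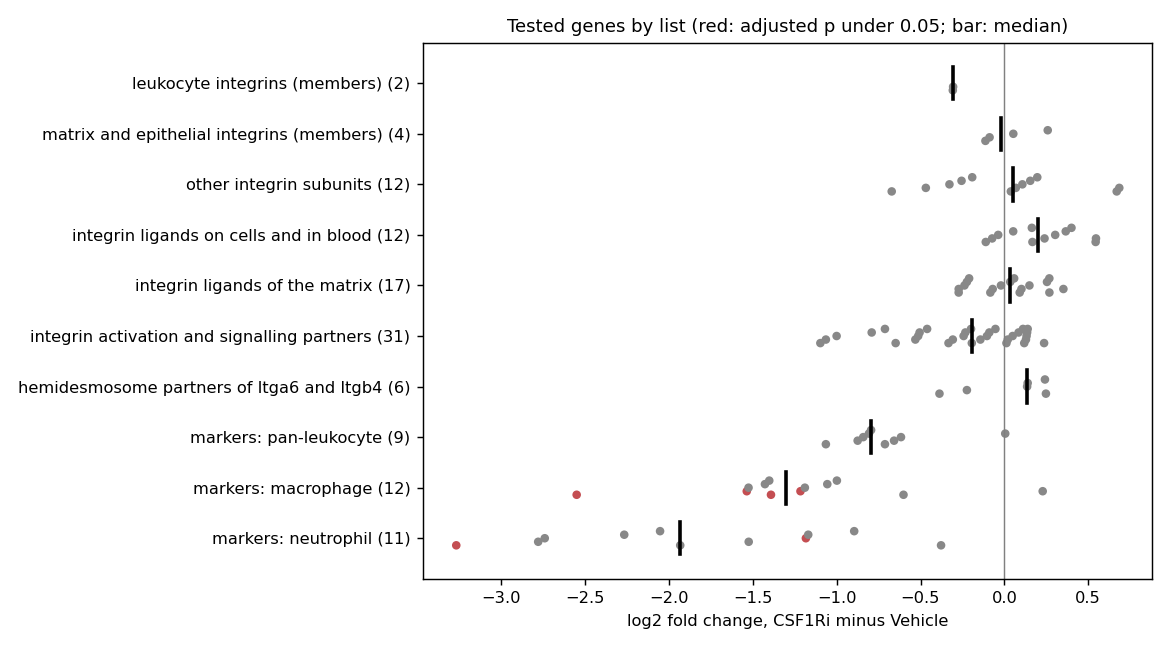
Log2 fold changes, CSF1Ri minus Vehicle, of the tested genes of each list (points; number tested in brackets; red marks an adjusted p under 0.05, black bars are medians). Both tested leukocyte members lie at -0.31, and the ligands on cells and in blood have a median of 0.20. Values of the other integrin subunits and of the matrix ligands lie on both sides of 0. The signalling partners reach down to -1.10, and the macrophage and neutrophil markers lie lower, with medians of -1.30 and -1.93.

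The genes whose profile over the 9 tumours lay closest to each tested member are given by the mean absolute difference of levels, each centred on its own mean. For Itgal these were Rapsn, Ppil2 and Lsm3 (0.09, 0.10 and 0.10, against a median of 0.31 over all genes). For Itgb2 they were Pimreg, Sgo2a and Ndc80 (0.09, 0.12 and 0.12, median 0.31), and for Itgav they were Lcor, Fancc and Rasl10a (0.08 each, median 0.26). Those of Itgb5 were Qtrt1, D11Wsu47e and Tmem87a (0.07, 0.08 and 0.08, median 0.30), and those of Itga6 were Huwe1, Hcfc1 and Tjp1 (0.07, 0.09 and 0.10, median 0.40). Itgb4 lay closest to Prmt2, Maf1 and Iqgap1 (0.04, 0.05 and 0.05, median 0.21). None of the 18 genes is another member or a partner from the lists. The smallest differences over all genes lie below the median by selection, and closeness was not tested.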

How the data were processed

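Per the file headers, the authors deposited 2 columns per Illumina array (12 arrays, 45281 probes), the intensity and the detection p-value. The deposited intensity was already background-subtracted, since it falls below 0, and unscaled. A second deposited table holds the same intensity scaled to 1 mean per array. No label names the scanning or scaling software, and the number of arrays limits the precision.

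The unscaled intensities were run through neqc of limma 3.58.1 in R 4.3.3 (background from the detection p-values, offset 16, quantile normalization, log2), and each tumour's arrays were then averaged. Probes detected in at least 4 tumours, on every array of each, were kept (16606). Annotation gave 34885 probes 1 symbol, 18 several and 10378 none; a RefSeq gene table changed 0 symbols. The brightest kept probe stood for a gene (9788 genes). Groups were compared with limma (lmFit, eBayes, no covariate, Benjamini-Hochberg over all genes, threshold 0.05), with a second fit over all kept probes and two-sided exact permutation tests for the 23 member probes. The limma step was tested on simulated data. A probe undetected in 1 group has only a bound: the brighter group's mean against the higher of its own value and each array's lowest detected signal in the dimmer group.

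Named genes are all members, every called gene and the 5 with the smallest p in each list of related integrins, ligands and partners, and the 3 nearest genes of each tested member; Icam1, Lamb3, Coro1a, Ptprc, Epcam, Mmp9 and Trem1 were added after their values were seen. Members and lists were chosen with earlier results of these data known. Alternatives covered normalization, background, filter, probe choice, repeats, block and single tumours. The brightness term was fitted over the 12 single arrays, with the correlation within a tumour estimated by duplicateCorrelation of limma.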

Additional observations from a re-analysis of the deposited data

Results flagged for a closer look

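Of 46 groups of 4 or 5 tumours checked over the 23 probes, 8 held a tumour far from the others of its group. Chance flags about 1 in 20 independent groups of normal values. These groups share tumours and genes, and some probes were undetected, so no excess over that rate can be read. In 2 of the 8 the probe was detected on no array: the Itga4 probe ILMN_1232028 in Vehicle 1 (4.44) and the Itgav probe ILMN_1254152 in CSF1Ri 4 (4.46), both levels without a meaningful order. The Itga6 probe ILMN_1223670 stood out in CSF1Ri 4 (5.23, with the next tumour at 4.49), the sole array on which it was detected. The dim Itgav probe ILMN_1251946 stood out in Vehicle 2 (5.52, next 4.90) and in CSF1Ri 2 (5.30, next 4.73). The brightest Itgav probe, ILMN_1238119, stood out in CSF1Ri 3 (6.14, next 5.88). Both Itgb4 probes were highest among Vehicle tumours in Vehicle 1, ILMN_2634689 at 10.92 (next 10.70) and ILMN_3144575 at 11.72 (next 11.65).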

How the results depend on the processing

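No member gene or member probe was called under any of the 20 alternatives for genes or 19 for probes, of which 3, by array brightness, were chosen after seeing the data. Itgal was negative under all 20 and Itgb2 under all 19 alternatives that tested it, from -0.45 to -0.18 and from -0.47 to -0.14. Itgav was positive under 19 of 20 (lowest -0.01), Itgb5 negative under 19 (highest 0.0041, without Vehicle 1), Itga6 ran from -0.27 to 0.14 and Itgb4 from -0.02 to 0.15. The difference of the measured Itgam means, which takes undetected levels at face value, was negative under all 18 alternatives that gave one. That difference was -0.27 with an offset of 50 and a background model without detection p-values. Changes of filter or probe choice could not alter the estimates of Itgam, Itgal, Itgb2 or Itgb5, each of which has a single probe. The replicate block gave the same estimates of the tested members as leaving out CSF1Ri 5. The number of member probes with an exact permutation p under 0.05 was 1 with undetected levels tied, an alternative also chosen after seeing the data, 0 under median scaling and 1 to 3 on leaving out single tumours (3 without Vehicle 1 or 2, 2 without CSF1Ri 2); it was not computed with the replicate block, the brightness term or within the brightness sets, where 3 against 3 tumours cannot go below 0.1. Over all genes and all probes, the counts called were 21 and 24. They were 13 and 7 without a filter, 10 and 10 for probes detected on all 12 arrays, and 1 and 1 with the replicate block. Within the dimmer arrays they were 1 and 1, and within the brighter arrays 11 and 8. With brightness as a term they were 52 and 52, in a fit over the 12 single arrays that also changed the unit and error model. Median scaling called 15 probes. Leaving out single tumours gave 11 to 34 genes (34 without CSF1Ri 3, 11 without Vehicle 2 or 3, 12 without Vehicle 4 or CSF1Ri 5) and 6 to 33 probes; the cause was not tested. Nothing states that replicate numbers pair the tumours: over genes, deviations of same-numbered tumours correlated at -0.09, 0.03, 0.12 and 0.34, and 0 of 4 Vehicle tumours correlated best with its own number. Dim signal limits Itgam, Itgb2, Itgb3, Itgax and Itga4 most, since their levels lie near or below the lowest detected signal.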

Other observations

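The 13 probes detected on at least 5 Vehicle arrays and no CSF1Ri array, among which is that of Itgam, stand for 12 genes, all named after their values were seen. They include Siglec1, a sialoadhesin of tissue macrophages (measured means 5.53 in Vehicle and, below detection, 4.53 in CSF1Ri tumours), both probes of Fcrls (6.85 against 4.38 and 6.23 against 4.48), a probe of the granule gene Mpo (5.53 against 4.42) and Pik3r6, a regulator of a leukocyte PI3-kinase (5.31 against 4.53). The others are Klrb1b, Pkib, Septin3, Slc9b2, Tmem273, Wdr4 and D630004K10Rik.

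Repeat hybridisations give technical differences for the members. Every first array of a repeated tumour was in the dimmer set and every second one in the brighter set. Any difference between the sets is therefore part of these values, while each set held 3 Vehicle and 3 CSF1Ri tumours. Over 30 pairs of readings (10 probes, 3 tumours), the absolute difference between the hybridisations of a tumour had a median of 0.25 and a maximum of 1.20, for the Itgav probe ILMN_1236648 in Vehicle 3 (6.59 and 5.40). Repeats of the Itgal probe differed by -0.61, -0.32 and -0.43 and those of the Itgb2 probe by 0.36, 0.54 and -0.14, beside group differences of -0.31 each. Repeats of the brightest Itgav probe, ILMN_1238119, differed by 0.04, -0.07 and -0.08, beside a group difference of 0.26.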
